A study of Mus musculus with 6 samples.

Results

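The genes described are the 10 that encode the TGF-beta ligands (Tgfb1, Tgfb2, Tgfb3), their receptors (Tgfbr1, Tgfbr2, Tgfbr3) and the latent TGF-beta binding proteins (Ltbp1, Ltbp2, Ltbp3, Ltbp4). They were taken by symbol from a table of 25302 genes, and all 10 were present and passed the filter on low values. The sequenced RNA came from biliary epithelial cells (the lining of bile ducts) of mouse liver. Samples labelled Control (n = 3) carried the genotype Sox9fl/fl, and samples labelled Sox9cKO (n = 3) the genotype Sox9fl/fl:AlbCre+/-, so both groups had loxP-flanked copies of Sox9, which encodes a transcription factor of duct cells. AlbCre is a Cre recombinase driven by the albumin promoter, which is active in the embryonic precursors of both hepatocytes and biliary cells and in hepatocytes themselves, so recombination is not restricted to bile ducts. The Control genotype lists no Cre. Age and sex are not given in the labels.

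TGF-beta is made as a precursor that is cut by furin-type proteases, yet the growth factor stays held in its own propeptide. The latent complex is tied to a latent TGF-beta binding protein, which fastens it to fibrillin and fibronectin in the matrix until integrins or proteases release it. The free ligand brings together TGFBR2, a kinase that is always active, and TGFBR1, which TGFBR2 phosphorylates and which then phosphorylates Smad proteins. Betaglycan, the product of Tgfbr3, presents ligand to TGFBR2. In the liver the pathway is known for setting bile duct fate in the embryo and for driving fibrosis around injured ducts.

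Each sample had between 11883496 and 16191990 reads assigned to genes. Values are normalized reads, that is, reads divided by the size factor of the sample. Sox9 followed the labels in each library, with 6043 to 6293 normalized reads in Control and 3165 to 3363 in Sox9cKO, so that 53.2% of the Control level was left (limma, adjusted p = 0.00501). All 8 biliary markers examined were present (Krt19 between 11480 and 26648), but so were transcripts of other cells. The hepatocyte gene Alb lay between 17384 and 35363, while the hepatocyte enzyme genes Cps1 and Cyp2e1 stayed between 28.6 and 172 normalized reads. Of the 8 hepatocyte markers, limma called 2 higher in Sox9cKO and none lower, against 2.03% and 0.939% of all genes tested. These were Tat (4.75-fold, limma, adjusted p = 0.00726) and Serpina1e (11.5-fold, limma, adjusted p = 0.0190). The log2 fold changes of the 8 ran from -0.44 (Ttr) to 3.88, with a median of 0.61. The summed hepatocyte level was 22716 to 35239 in Control and 30728 to 46370 in Sox9cKO. Of the 8 biliary markers, 1 was called higher (Krt7) and 1 lower (Sox9 itself). The summed level of 8 endothelial markers ranged from 1426 to 31024 in Control and from 5026 to 31564 in Sox9cKO. Of 8 leukocyte and Kupffer cell markers 6 were in the table. Of the 5 tested, limma called 1 higher (2.03% of all genes) and none lower (0.939%), and the median log2 fold change was -0.69. The called gene, Csf1r, rose from between 705 and 797 normalized reads to between 1266 and 1638 (limma, adjusted p = 0.0142). The other markers had lower means in Sox9cKO. Ptprc lay at 19.6 to 37.0 in Control and 1.13 to 16.9 in Sox9cKO. Clec4f, Cd5l, Adgre1 and Cd79a were at 68.4%, 43.3%, 64.8% and 60.4% of Control, with overlapping groups. In bulk samples, a smaller number of cells of one type and less RNA per cell cannot be told apart. The labels do not say whether replicates came from separate animals, so the p-values measure the spread between these samples only.

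Among the 10 genes, Ltbp1, Ltbp2 and Tgfbr2 rose in Sox9cKO and Tgfb3 fell (limma with Benjamini-Hochberg adjustment over all 17153 genes tested, threshold 0.05). These 4 calls compare with 2.97% of all genes tested. By direction, 3 of the 10 were called higher, against 2.03% of all genes, and 1 was called lower, against 0.939%. For 6 of the 10 the values of the Control and Sox9cKO samples did not overlap, which held for 24.2% of all genes tested. The median log2 fold change of the 10 was 0.55, and that of all genes tested was 0.036. Of these 6, 5 were higher in Sox9cKO, against 13.4% of all genes, and 1 was lower, against 10.8%. With edgeR's quasi-likelihood test on reads, 4 were again called (2.86% of all genes), 3 higher (1.82%) and 1 lower (1.04%). DESeq2 called 5 (7.08% of all genes), 4 higher (4.21%) and 1 lower (2.88%). A replicate block in limma also gave 5 calls (8.05% of all genes), 4 higher (5.06%) and 1 lower (2.99%).

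**Figure D1:**
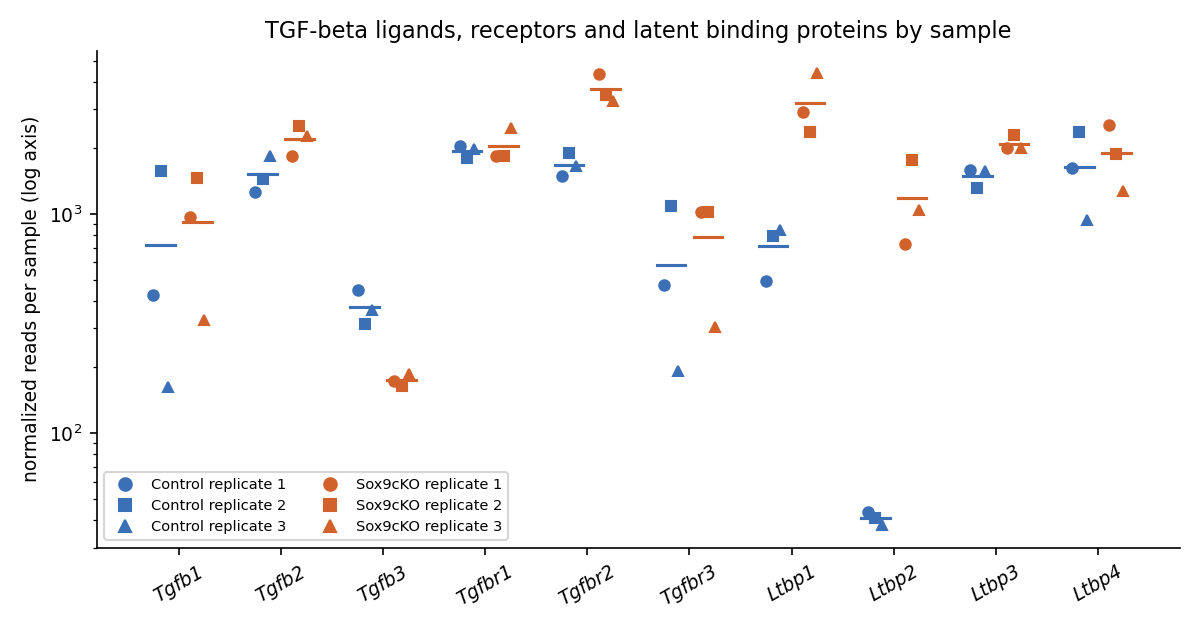
Normalized reads of the 10 genes in each sample, on a log axis; blue marks Control, orange marks Sox9cKO, the marker shape gives the replicate number and the bar is the group mean. Ltbp2 lies near 40.9 in Control and 1180 in Sox9cKO, while the points of Tgfb1 and Tgfbr3 scatter widely within each group.

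**Figure D2:**
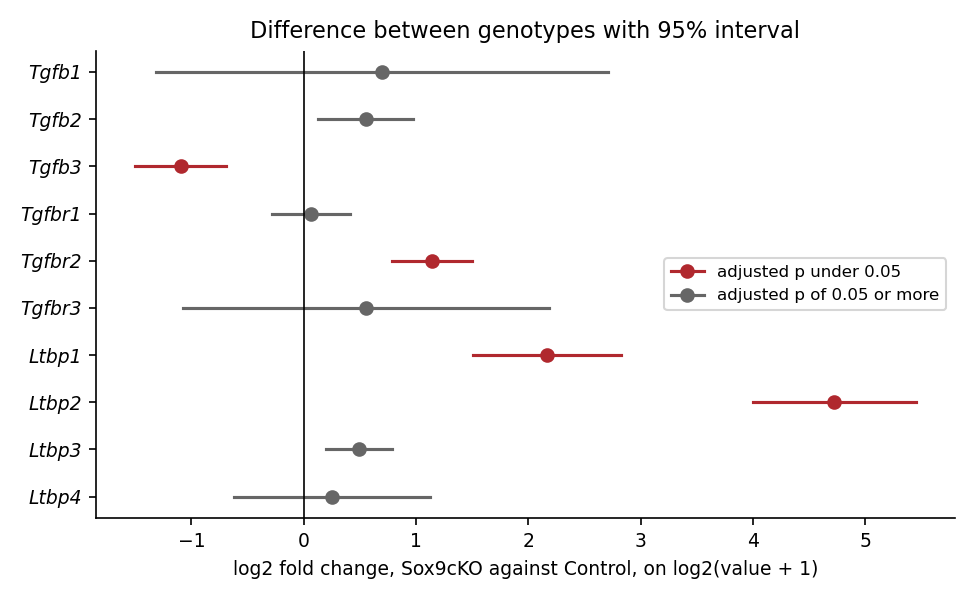
Log2 fold change of each gene, Sox9cKO against Control, on the log2(value + 1) scale (point) with its 95% interval (line) from limma; red marks an adjusted p under 0.05. The 4 red genes are Ltbp2 (4.72), Ltbp1 (2.17), Tgfbr2 (1.14) and Tgfb3 (-1.09).

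The latent binding proteins showed the largest differences. Ltbp2 encodes the member of the family that binds fibrillin microfibrils but does not bind latent TGF-beta. In order of replicate number, it had 43.7, 40.8 and 38.0 normalized reads in the Control samples, and 728, 1769 and 1042 in the Sox9cKO samples; the same order holds for the values of other genes. Every Sox9cKO sample was thus far above every Control sample, and the Control samples were nearly equal. The mean rose from 40.9 ± 2.85 to 1180 ± 534 (SD, n = 3), a 28.9-fold difference. The log2 fold change was 4.72, SE 0.31 (limma, adjusted p = 0.00123). The smallest Control value of Ltbp2 rested on 33 reads, so even the low group was measured and not at 0. Within same-numbered pairs the ratio of Sox9cKO to Control was 16.7, 43.3 and 27.4.

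Ltbp1, which encodes the main carrier of latent TGF-beta in many tissues, had 495, 793 and 844 normalized reads in Control and 2923, 2352 and 4376 in Sox9cKO. The groups were well apart, and the highest Sox9cKO value was in replicate 3. The mean rose from 711 ± 189 to 3217 ± 1043 (SD, n = 3), or 4.53-fold, and the log2 fold change was 2.17, SE 0.28 (limma, adjusted p = 0.0097). Ltbp1 and Ltbp2 were called under all 17 alternatives, with adjusted p-values up to 0.0388 and 0.00981.

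Ltbp3, which encodes a carrier known from bone and vessel wall, had 1586, 1313 and 1571 normalized reads in Control and 1991, 2281 and 1999 in Sox9cKO. The groups did not overlap, and the mean ratio was 1.40, but the difference did not pass the threshold (log2 fold change 0.49, 95% interval 0.20 to 0.78; limma, adjusted p = 0.0963). DESeq2 alone called it (adjusted p = 0.0454). Ltbp4, which encodes a carrier important for elastic fibres, had 1618, 2370 and 938 normalized reads in Control and 2552, 1874 and 1276 in Sox9cKO. Its groups overlapped (log2 fold change 0.25, 95% interval -0.62 to 1.13; limma, adjusted p = 0.778).

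The sequences before the start sites of the 3 genes that rose are shown because these genes were all called higher in Sox9cKO. Their highest Sox9cKO values fell in different samples: replicate 2 for Ltbp2, replicate 3 for Ltbp1 and replicate 1 for Tgfbr2. Of the 10 genes, 8 matched RefSeq's promoter table by symbol (build GRCm38.p6), in 12 windows, and Tgfb3 and Tgfbr3 did not. Each sequence holds the 250 bases before an annotated start, 5′ to 3′ on the strand of the gene, and capitals mark CAGAC or ACAAT on either strand. Ltbp1 has 2 annotated starts, for its long and its short forms, and the table of reads does not separate them.
Ltbp2 (chr12:84876492-84876741, minus strand): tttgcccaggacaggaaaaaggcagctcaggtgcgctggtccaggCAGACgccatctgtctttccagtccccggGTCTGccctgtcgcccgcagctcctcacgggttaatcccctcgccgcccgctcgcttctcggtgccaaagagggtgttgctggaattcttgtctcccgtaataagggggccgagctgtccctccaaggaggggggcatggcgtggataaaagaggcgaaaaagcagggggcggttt
Ltbp1, upstream start (chr17:75005279-75005528, plus strand): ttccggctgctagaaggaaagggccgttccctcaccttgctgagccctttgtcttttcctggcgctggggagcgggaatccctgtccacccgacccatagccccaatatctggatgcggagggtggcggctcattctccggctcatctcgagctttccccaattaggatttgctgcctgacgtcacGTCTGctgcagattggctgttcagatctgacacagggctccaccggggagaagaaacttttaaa
Ltbp1, downstream start (chr17:75178531-75178780, plus strand): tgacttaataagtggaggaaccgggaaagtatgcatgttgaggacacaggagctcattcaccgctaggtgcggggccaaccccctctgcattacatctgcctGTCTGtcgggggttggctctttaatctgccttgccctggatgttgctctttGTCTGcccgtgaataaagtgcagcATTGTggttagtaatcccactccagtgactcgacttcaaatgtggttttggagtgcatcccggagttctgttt
Tgfbr2 (chr9:116175364-116175613, minus strand): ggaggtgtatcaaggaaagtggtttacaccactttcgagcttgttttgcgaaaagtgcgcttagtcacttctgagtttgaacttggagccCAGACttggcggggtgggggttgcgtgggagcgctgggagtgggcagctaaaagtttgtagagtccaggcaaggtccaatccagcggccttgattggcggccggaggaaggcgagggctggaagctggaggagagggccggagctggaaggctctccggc

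The motifs searched, on both strands, were CAGAC, a core bound by Smad proteins, ACAAT, a core bound by Sox proteins, TGANTCA for AP-1 and GGAATG for TEAD factors. No matches overlapped. CAGAC was in all 4 windows shown, once or more in each, and in 7 of the 12 windows of the family, against 42.2% of the 32851 windows in the table. In the Ltbp2 window it began 205 and 176 bases before the start, and in the Tgfbr2 window 160 bases before. The ACAAT core was in 1 of the 12 windows, at 73 bases before the downstream start of Ltbp1, against 27.7% of all windows. TGANTCA and GGAATG had no match in the 12 windows, against 6.75% and 12.6% of all windows. A match is a description of letters and not a bound site.

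Of the receptors, Tgfbr2 rose. It had 1483, 1892 and 1646 normalized reads in Control and 4345, 3499 and 3265 in Sox9cKO, so the lowest Sox9cKO sample was well above the highest Control sample. The mean rose from 1674 ± 206 to 3703 ± 568 (SD, n = 3), or 2.21-fold, and the log2 fold change was 1.14, SE 0.15 (limma, adjusted p = 0.0105). Without Control replicate 1 the adjusted p of Tgfbr2 from limma was 0.0581, and without Control replicate 3 it was 0.0524, while the log2 fold change was 1.06 and 1.13.

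Tgfbr1, the type I receptor that TGFBR2 activates, had 2030, 1801 and 1985 normalized reads in Control and 1829, 1831 and 2468 in Sox9cKO. The groups overlapped (log2 fold change 0.062, 95% interval -0.28 to 0.41; limma, adjusted p = 0.874). This interval lies below the lower bound for Tgfbr2 (0.79). Tgfbr3, the co-receptor gene, had 476, 1090 and 192 normalized reads in Control and 1023, 1014 and 306 in Sox9cKO. Its values differed 5.66-fold between the highest and lowest Control samples, and the groups overlapped (log2 fold change 0.55, 95% interval -1.07 to 2.18; limma, adjusted p = 0.736).

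Per kilobase of transcript, the ratio of Tgfbr2 to Tgfbr1 was 0.520, 0.747 and 0.590 in Control and 1.69, 1.36 and 0.941 in Sox9cKO. Control samples thus held fewer Tgfbr2 than Tgfbr1 transcripts, and the Sox9cKO samples lay around or above equality. The mean ratio was 0.619 ± 0.116 in Control and 1.33 ± 0.375 in Sox9cKO (SD; exact two-sided permutation test with n = 3 per group, p = 0.10, the smallest it can give; 0.15 adjusted over the 3 such comparisons made).

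Among the ligands, Tgfb3 fell. It had 450, 313 and 365 normalized reads in Control and 172, 163 and 186 in Sox9cKO, and the Sox9cKO samples were close to each other and all below the Control samples. The mean fell from 376 ± 69.1 to 174 ± 11.2 (SD, n = 3), to 46.2% of Control, and the log2 fold change was -1.09, SE 0.17 (limma, adjusted p = 0.0207). This call needed nearly all samples. The adjusted p of Tgfb3 from limma was 0.0880 and 0.0820 without Control replicate 1 or 3, and 0.0600, 0.0714 and 0.0577 without Sox9cKO replicate 1, 2 or 3. Without Control replicate 2 the call stood (limma, adjusted p = 0.0245). Over all 6 of these fits the log2 fold change of Tgfb3 lay between -1.22 and -0.96.

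Tgfb2, whose product depends most on betaglycan for reaching TGFBR2, had 1258, 1448 and 1831 normalized reads in Control and 1832, 2521 and 2264 in Sox9cKO. The groups did not overlap, but Control replicate 3 and Sox9cKO replicate 1 were almost equal. The mean ratio was 1.46, and the log2 fold change of 0.55 (95% interval 0.13 to 0.97) did not pass the threshold (limma, adjusted p = 0.174). With a replicate block it did in limma (adjusted p = 0.0424) but not in edgeR's quasi-likelihood test (adjusted p = 0.0590). Same-numbered samples differed by 0.54, 0.80 and 0.31 on the log2 scale for Tgfb2, all in the same direction.

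Tgfb1, the most studied isoform, had 425, 1565 and 161 normalized reads in Control and 970, 1459 and 326 in Sox9cKO. Its Control samples differed 9.70-fold between highest and lowest, and its Sox9cKO samples 4.48-fold. The difference between genotypes was smaller than this spread (log2 fold change 0.70, 95% interval -1.31 to 2.71; limma, adjusted p = 0.730). Same-numbered samples differed by 1.19, -0.10 and 1.01 for Tgfb1 on the log2 scale, so replicate 2 did not share the direction of the others.

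Tgfb1, Tgfbr3 and Ltbp4 varied with the replicate number more than with genotype, and so did endothelial transcripts. The summed level of the 8 endothelial markers was 9846, 31024 and 1426 in Control and 24243, 31564 and 5026 in Sox9cKO. None of the 8 was called (limma), and their median log2 fold change was 1.04. From the lowest upward, Control replicate 3, Sox9cKO replicate 3 and Control replicate 1 held the 3 lowest places, in this order, in the endothelial sum and in Tgfb1, Tgfbr3 and Ltbp4. The part of endothelial RNA in the values of these 3 genes was not tested. Ltbp1, Ltbp2, Tgfbr2 and Tgfb3 did not follow this order. Ltbp2 was at 40.8 in the Control sample with the highest endothelial sum and at 1042 in the Sox9cKO sample with the lowest. Tgfbr2, like the endothelial sum, had its highest Control value in replicate 2 (1892) and its lowest Sox9cKO value in replicate 3 (3265).

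**Figure D3:**
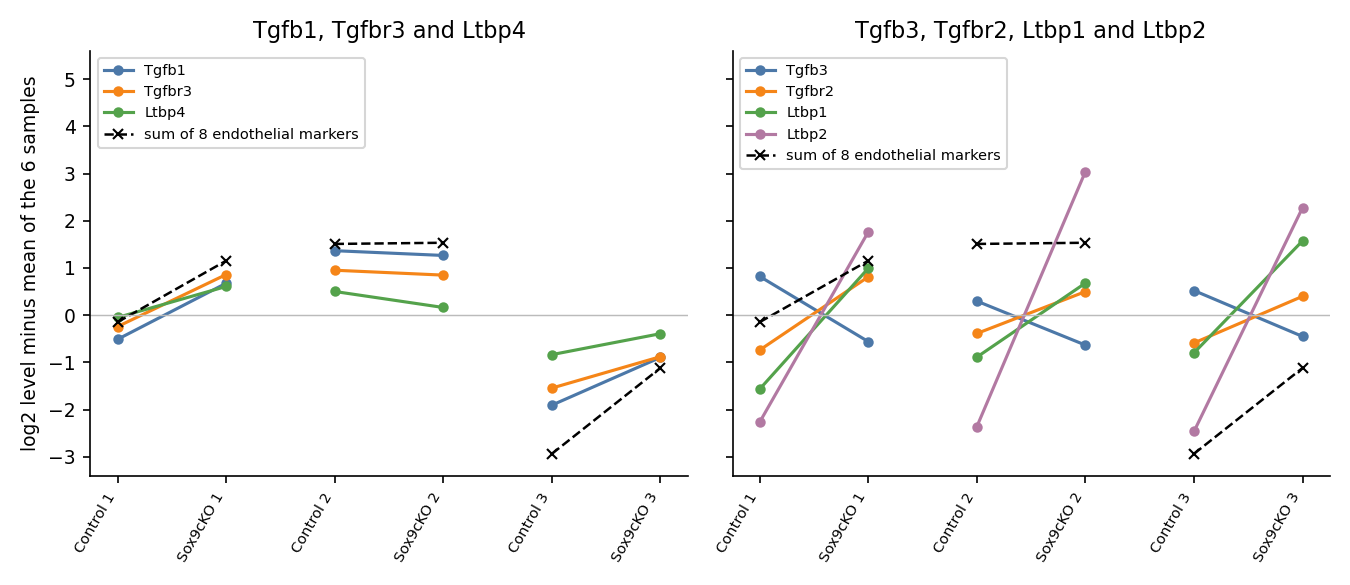
Log2 level of each gene, minus its mean over the 6 samples, with same-numbered Control and Sox9cKO samples joined by a line; the dashed line with crosses is the summed level of 8 endothelial markers. Tgfb1, Tgfbr3 and Ltbp4 (left) are lowest in both samples of replicate 3, as are the markers, whereas Ltbp1, Ltbp2 and Tgfbr2 rise and Tgfb3 falls in each of the 3 pairs (right).

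Cells that often express this family in matrix-rich tissue were measured by other markers. For stellate cells and portal fibroblasts, all 9 listed markers were in the table and the summed level was 1896, 2135 and 1907 in Control and 3082, 1843 and 3049 in Sox9cKO. Most of that sum was Reln (1579 to 2799), while Lrat, Des, Colec11 and Dpt each stayed between 9.22 and 48.3 normalized reads. Col15a1 had 39.0 to 54.1 in Control and 82.2 to 169 in Sox9cKO and was not called (limma, adjusted p = 0.0898, or 0.0326 with the block). None of the 8 tested was called without the block, and Thy1 was at 0 in 1 sample. The 5 smooth muscle markers summed to 137 to 239 in Control and 160 to 287 in Sox9cKO, with Myh11 alone between 66.8 and 220. None of the 4 tested was called without the block. Cnn1 was lower in Sox9cKO, with 29.7 to 43.7 in Control and 7.56 to 19.2 in Sox9cKO (limma, adjusted p = 0.150, or 0.0483 with the block). Actg2, too low to be tested, had 3.46 to 7.57 in Control and 0.945 to 1.13 in Sox9cKO. Among the 5 mesothelial markers, only Msln was called (log2 fold change 2.01, limma, adjusted p = 0.0159), and 2.03% of all genes were called higher. The others did not share 1 direction. Wt1 had 19.3 to 29.95 in Control and 34.0 to 60.7 in Sox9cKO. Upk3b was lower in Sox9cKO, with 65.0 to 80.7 in Control and 35.9 to 44.8 in Sox9cKO. Lrrn4 overlapped, with 21.9 to 64.5 in Control and 22.7 to 45.3 in Sox9cKO. The summed mesothelial level was 12013 to 12828 in Control and 13586 to 28518 in Sox9cKO, nearly all of it Krt19, which is also a biliary keratin. The part of these cells, and of endothelial cells, hepatocytes and macrophages, in the differences of Ltbp1, Ltbp2, Tgfbr2 and Tgfb3 was not tested.

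Levels were then compared between genes per kilobase of the longest coding transcript. In Control, Tgfbr1 had the highest mean level (337 ± 21.0 normalized reads per kilobase, SD, n = 3), followed by Tgfb1 (330 ± 343), Ltbp4 (305 ± 133), Tgfb2 (296 ± 57.1) and Ltbp3 (287 ± 29.6), and neighbours among these 5 overlapped. Tgfbr2 came next at 207 ± 25.4, below every Ltbp3 value. Tgfb3 (111 ± 20.4), Ltbp1 (107 ± 28.3) and Tgfbr3 (96.3 ± 75.3) overlapped one another in order, and Ltbp2 was last at 6.04 ± 0.420, apart from all others. In Sox9cKO other genes stood at the top and the bottom. Ltbp1 (482 ± 156) and Tgfbr2 (458 ± 70.2) had the highest mean levels, Ltbp2 (174 ± 78.9) was eighth and Tgfb3 (51.4 ± 3.30) last, although every neighbouring pair in that order overlapped. The order rests on the length used. With the union of all exons as length, Ltbp1 in Sox9cKO was at 301 ± 97.6, below Tgfbr2 (452 ± 69.4), Tgfb2 (381 ± 60.2) and Tgfbr1 (313 ± 56.4), and Ltbp3 in Control (164 ± 16.9) was below Tgfbr2 (204 ± 25.1). Ltbp2 stayed last in Control, and Tgfb3 last in Sox9cKO, with either length.

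The make-up of the latent binding proteins was compared next. Per kilobase, Ltbp2 was 0.940%, 0.738% and 0.922% of the 4 Ltbp genes together in Control and 7.67%, 18.6% and 10.7% in Sox9cKO (mean 0.867% ± 0.112 against 12.4% ± 5.66, SD; exact two-sided permutation test with n = 3 per group, p = 0.10, the smallest it can give; 0.15 adjusted over 3 comparisons). Ltbp1 made up 10.8% to 20.8% in Control and 25.2% to 45.8% in Sox9cKO. The sum of the 4 genes was 687, 818 and 609 normalized reads per kilobase in Control and 1403, 1401 and 1432 in Sox9cKO, so the Sox9cKO samples were nearly equal although the shares of Ltbp1, Ltbp2 and Ltbp4 differed between them.

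Within the ligands the share of Tgfb3 was 23.1%, 8.44% and 19.99% in Control and 5.95%, 3.99% and 8.48% in Sox9cKO. These shares overlapped, and the lowest Control share was in replicate 2, which held the most Tgfb1. The mean was 17.2% in Control and 6.14% in Sox9cKO, a difference that did not pass the test (exact two-sided permutation test with n = 3 per group, p = 0.20; 0.20 adjusted over 3 comparisons). The sum of the 3 ligands overlapped between groups, at 540 to 1095 normalized reads per kilobase in Control and 647 to 1212 in Sox9cKO. The sum of the 3 receptors did not overlap, at 580 to 726 in Control and 882 to 1023 in Sox9cKO.

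**Figure D4:**
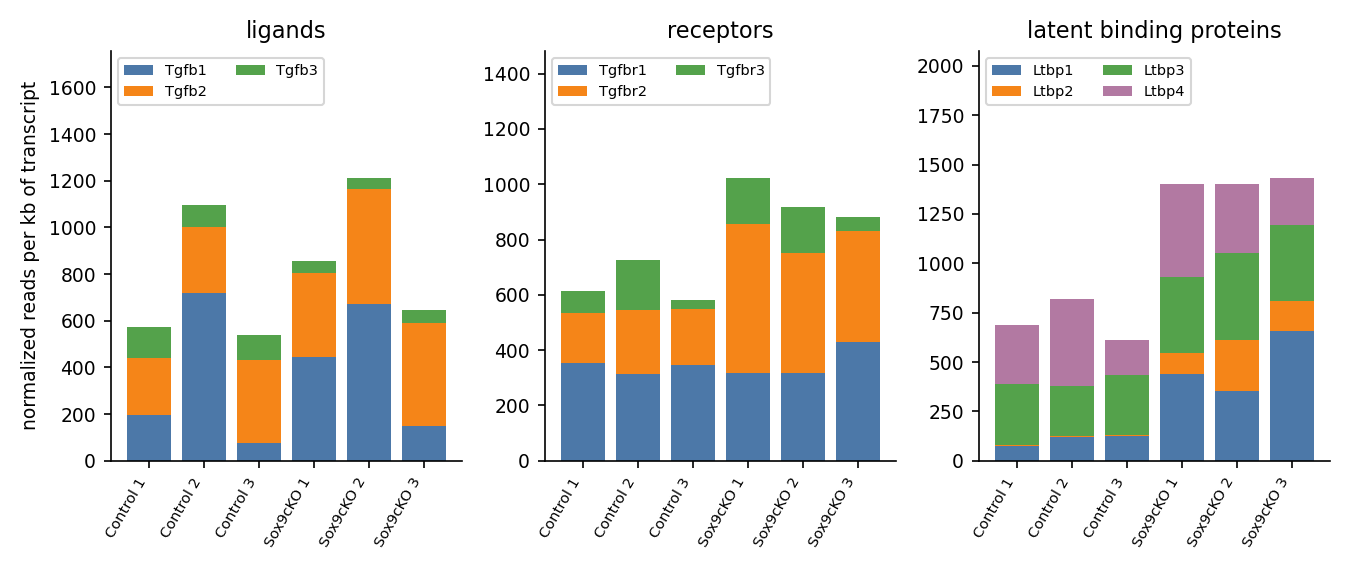
Normalized reads per kilobase of transcript, stacked by gene, for the ligands, the receptors and the latent binding proteins in each of the 6 samples. The bars of the latent binding proteins reach 609 to 818 in Control and 1401 to 1432 in Sox9cKO, whereas those of the ligands overlap between groups.

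Other genes of the pathway were examined in 3 lists. The first holds genes that process, hold or release latent TGF-beta. Of its 16 genes 15 were tested, 3 were called higher and 1 lower (limma; 2.03% and 0.939% of all genes), and the median log2 fold change was 0.56. Plau (urokinase, which makes plasmin) rose from 380 ± 191 to 1257 ± 85.8 normalized reads (SD, n = 3), Bmp1 (a protease that cuts LTBP1 among other matrix proteins) from 635 ± 39.9 to 1141 ± 169, and Mmp14 (a membrane-bound matrix protease) from 1266 ± 231 to 2194 ± 204. Itgb8, the beta subunit of an integrin that binds the propeptides of TGF-beta 1 and 3, fell from 1850 ± 312 to 860 ± 140. For Plau, Bmp1, Mmp14 and Itgb8, limma gave an adjusted p of 0.0277, 0.0285, 0.0495 and 0.0198. Itgb6, the beta subunit of the integrin of epithelial cells that activates TGF-beta, had 1397 ± 443 in Control and 2591 ± 617 in Sox9cKO and was not called (limma, adjusted p = 0.158).

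These calls were near the threshold. Leaving out 1 sample gave between 0 and 2 called genes in this list with limma: 0 without Control replicate 1, Control replicate 3 or Sox9cKO replicate 2, 1 without Sox9cKO replicate 1 or 3, and 2 without Control replicate 2. Without the intensity trend none was called. A replicate block gave 5 genes called higher and 1 lower (5.06% and 2.99% of all genes).

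The second list holds matrix partners, co-receptors and decoys. Of its 16 genes 15 were tested and 2 were called, both higher (2.03% of all genes), with a median log2 fold change of 0.23. Fn1, which encodes the fibronectin fibres on which LTBP1 is laid down, had 12574, 9628 and 13164 normalized reads in Control and 42616, 41711 and 45986 in Sox9cKO (log2 fold change 1.89; limma, adjusted p = 0.00261). Lrg1, which encodes a secreted modulator of TGF-beta receptors, rose from 134 ± 40.3 to 458 ± 88.4 (SD, n = 3; limma, adjusted p = 0.0156). Lrg1 lost its call without Control replicate 3 (limma, adjusted p = 0.0581), Sox9cKO replicate 1 (0.0563) or Sox9cKO replicate 3 (0.0599). Fbn1 and Fbn2, the fibrillin genes, had 36.9 to 187 and 4.64 to 15.0 normalized reads in Control and 89.4 to 241 and 5.66 to 44.8 in Sox9cKO, and neither was called. A replicate block gave 3 genes called higher and 1 lower in this list (5.06% and 2.99% of all genes).

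The third list holds target genes of TGF-beta signalling. All 21 were tested and 3 were called, all higher (2.03% of all genes), with a median log2 fold change of 0.62. Cdkn2b, an inhibitor of the cell cycle, had 10.9, 32.5 and 19.6 normalized reads in Control and 254, 212 and 165 in Sox9cKO (log2 fold change 3.37; limma, adjusted p = 0.00687). Igfbp3, a carrier of insulin-like growth factors, rose from 41.8 ± 3.73 to 167 ± 29.98 (SD, n = 3; limma, adjusted p = 0.00553). The Smad feedback gene Smad7 (log2 fold change 0.19), Skil (-0.11) and Tgfbi (-0.11) were not called (limma, adjusted p between 0.648 and 0.919). Tagln had the lowest log2 fold change of the list (-0.83) and was not called (limma, adjusted p = 0.151). It had 58.0, 85.4 and 66.8 normalized reads in Control and 44.8, 39.7 and 31.7 in Sox9cKO, without overlap. A replicate block gave 6 called genes in the list, all higher (5.06% of all genes).

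**Figure D5:**
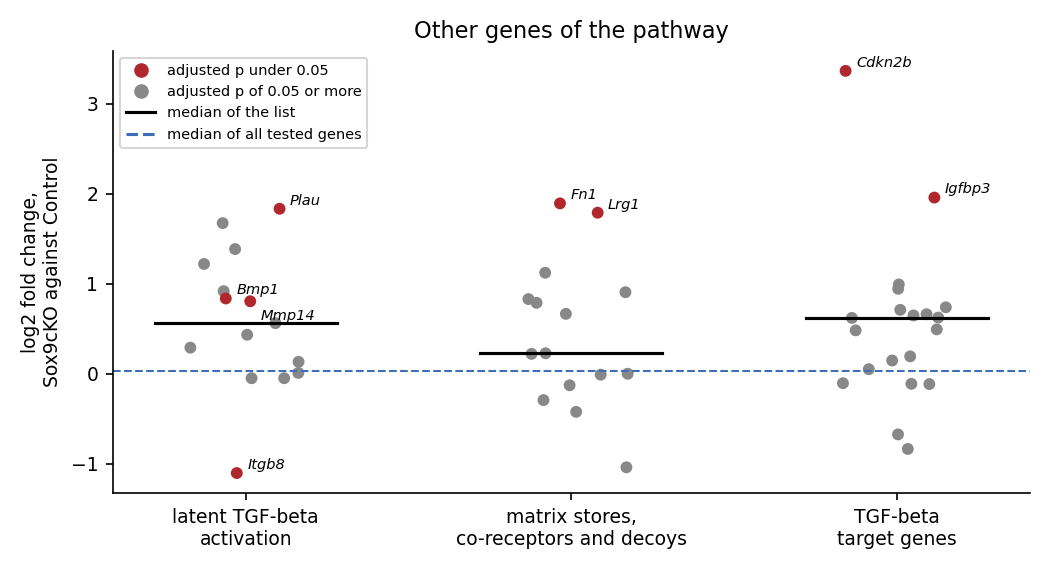
Log2 fold change of the tested genes in 3 lists of TGF-beta pathway genes, Sox9cKO against Control, with 1 target gene left out of the points. Red marks an adjusted p under 0.05. The black bar is the median over all tested genes of the list, the left-out gene included. The dashed line is the median of all genes tested (0.036). The medians of the lists are 0.56, 0.23 and 0.62.

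The genes with the pattern most like each called gene were found by Pearson correlation of log2(value + 1) over the 6 samples, and a difference between genotypes alone can make it high. For Ltbp2 these were Hp, Cnih1 and Adgrg1 (r = 0.999, 0.998 and 0.996), and Hp had its highest value in Sox9cKO replicate 2, as Ltbp2 did. For Ltbp1 they were Cbr4, Zdhhc13 and Atp8a1, for Tgfbr2 Dpp3, Gsr and Ivl, and for Tgfb3 Kansl1l, Sirt1 and Fmo2. Between 151 and 262 genes had a correlation over 0.95 with one of these 4 genes, so many genes shared each pattern at n = 6.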

How the data were processed

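Per the labels, total RNA was depleted of ribosomal RNA and made into stranded libraries with molecular identifiers. The authors deposited 1 signal per gene and sample, gene counts divided by a size factor, and the submitters' processing notes name DESeq2 1.36.0 and the build GRCm39. The aligner, counting program, annotation and use of molecular identifiers are not given in the sources used here. Multiplied by 1 factor per sample, 100% of the deposited values gave whole reads (tolerance 0.001 reads), with factors of 0.868 to 1.19. Genes with a lowest total of 10 reads over the samples were in the table. The number in each sample's title identified its column.

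Values were tested as log2(value + 1) with limma 3.58.1 in R 4.3.3 (intensity trend, two-sided) on the 17153 genes with a mean of at least 10, with Benjamini-Hochberg adjustment over all of them and a threshold of 0.05. The limma fit was tried on simulated reads, with the same spread setting for all genes and no shared differences between replicates. The outcome is not given here. As alternatives, the pseudocount was set to 0.1 or 5, the filter was dropped or raised to a mean of 50, scaling was by TMM or quantiles, the intensity trend was left out and the replicate block was added; edgeR 4.0.16 and DESeq2 1.42.0 were run on the recovered reads, and each sample was left out in turn. Lengths are those of the longest coding transcript in GENCODE M21 (GRCm38), matched by Ensembl identifier; because that build differs from GRCm39, no gene coordinates are given, and promoter coordinates are those of RefSeq's GRCm38.p6 table. Antisense or overlapping genes cannot be told apart from the counts, since strand use is not stated.

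The labels do not say what a shared replicate number marks. Same-numbered samples were taken as pairs because their deviations from the group means correlated across genes (0.207, 0.472 and 0.542 for replicates 1 to 3). Samples with different numbers gave correlations between -0.437 and 0.0476. The pairing was thus read from the same values that the fits with the replicate block test, and calls made only with the block rest on it. The 10 genes and all lists were chosen with earlier results of these data known. All 10 genes are named. From each pathway list, up to 4 called genes with the smallest p are named, except 1 target gene that is counted but not reported here, as are the 3 genes most correlated with each called gene of the 10; other genes were chosen after their values were seen.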

Additional observations from a re-analysis of the deposited data

How the results depend on the processing

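Ltbp1 and Ltbp2 kept their calls in all 17 alternatives, with log2 fold changes of 1.92 to 2.37 and 4.38 to 5.02. Tgfbr2 and Tgfb3 kept theirs in all alternatives with 6 samples. Over the fits that left out 1 sample, 2 to 4 of the 10 genes and 200 to 389 of all genes were called, against 4 and 510. All genes called numbered 1381 with the replicate block in limma, 1160 with edgeR and the replicate block, and 1214 with DESeq2; the cause was not tested. The replicate block changed the call of Tgfb2 in limma (not in edgeR, adjusted p = 0.0590) and of no other gene among the 10 in either tool. The uncalled genes Tgfb1, Tgfbr3, Ltbp4 and Tgfbr1 changed sign: Tgfb1 ranged from -0.0781 to 1.56 when 1 sample was left out, Tgfbr3 from -0.0782 to 1.17, Ltbp4 from -0.0999 to 0.568 and Tgfbr1 from -0.0817 to 0.134 (-0.0370 with quantile normalization). For Tgfb1, Tgfbr3 and Ltbp4 the lowest value was that without Control replicate 3, and for Tgfbr1 that without Sox9cKO replicate 3. Quantile normalization put the all-gene median at -0.031, against 0.036 before. Without division by length, the ratio of Tgfbr2 to Tgfbr1 differed by 1.0 between groups, in place of 0.712. Using the union of exons as length, chosen after seeing the data, turned no difference in shares and left the receptor and latent binding protein sums apart between groups, but moved the order of levels per kilobase. With 3 samples per group, the exact test of a share cannot go below 0.10.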

Other observations

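Plat, Pmepa1 and Bambi did not overlap between groups and missed the threshold, but passed it in limma once the replicate number was a block. Of all genes tested, 24.2% did not overlap, and limma called 8.05% with the block and 2.97% without it. The same held for Serpine2 (limma, adjusted p = 0.0640, or 0.0280 with the block) and Ldlrad4 (limma, adjusted p = 0.156, or 0.0394 with the block). Plat, the tissue plasminogen activator, had 1312, 2744 and 3337 normalized reads in Control and 5126, 7509 and 10160 in Sox9cKO (limma, adjusted p = 0.0721, or 0.00123 with the block). Pmepa1, a feedback inhibitor of Smad signalling, had 1065, 928 and 1194 in Control and 2212, 1362 and 1823 in Sox9cKO (limma, adjusted p = 0.106, or 0.0205 with the block). Bambi, a pseudoreceptor that dampens TGF-beta signalling, had 363, 193 and 235 in Control and 146, 102 and 126 in Sox9cKO (limma, adjusted p = 0.0991, or 0.0140 with the block). Lrrc32, which holds latent TGF-beta on the cell surface, had 166, 789 and 42.6 in Control and 709, 1075 and 134 in Sox9cKO. Its groups overlapped (limma, adjusted p = 0.590, or 0.0385 with the block). From lowest to highest, the 6 samples stood in the same order for Lrrc32 as for the summed endothelial markers. All genes named in this paragraph were chosen after their values were seen.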
